A study of Rattus norvegicus with 6 samples.

Results

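Endoplasmic reticulum (ER) stress genes and targets of the transcription factor ATF4 were followed in rat liver after tienilic acid (TA), a uricosuric diuretic that was withdrawn from use because of hepatitis. The group holds 32 genes chosen by name and by no cut-off on a measured value. Earlier results of these data were known when the genes were chosen. A gene was represented by the brightest probe set, by mean over the 6 arrays, among those annotated with its symbol alone. Of the 32 genes, 30 had such a probe set, out of 14217 genes on the array, and Ern1 and Derl3 were not analysed here. A filter kept probe sets whose mean lay above the 40th percentile of all, at 2.82 on the log2 scale of the deposited values, and 27 of the 30 genes passed it, as did 10449 genes in all. Ppp1r15a, the phosphatase subunit that reverses eIF2 alpha phosphorylation, Slc7a11, the cystine transporter, and Mthfd2, a mitochondrial folate enzyme, lay below it with means of 2.26, 2.68 and 2.17. Over the 6 arrays they ranged from 2.24 to 2.29, from 2.65 to 2.70 and from 2.15 to 2.19, near the floor of the deposited scale, so that a low level and a lack of signal cannot be told apart for these 3 genes.

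Male Sprague Dawley rats of 210 to 230 g received TA at 100 mg/kg by gavage, in 1 mL with an equimolar amount of sodium bicarbonate, or sodium bicarbonate alone as the vehicle. One set of rats was dosed 1 time and killed 6 h later, and the other was dosed at 0 and 16 h and killed at 24 h. At each time, 2 treated animals had an array each and the RNA of 2 vehicle animals was pooled on 1 array, so that 6 arrays carried the RNA of 8 animals. All rats had food at will, and the series title asks about early gene induction and danger signals. The vehicle groups have no replicate, and every standard error below is limma's moderated one, which pools the spread between the treated animals over both times with a prior variance estimated from all probe sets kept. The animals of a time were set against a shared pool, so that their directions are not independent of each other.

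The ER folds secreted and membrane proteins, which the hepatocyte makes in bulk as plasma proteins. When unfolded proteins accumulate there, 3 sensors respond: IRE1, encoded by Ern1, which splices Xbp1 RNA, the kinase PERK, encoded by Eif2ak3, which phosphorylates eIF2 alpha, and ATF6, which is cleaved to release a transcription factor. XBP1 and ATF6 raise chaperones and the machinery of ER-associated degradation. Phosphorylated eIF2 alpha lowers translation in general and favours that of ATF4, which is also reached from amino acid shortage through another eIF2 alpha kinase, and which raises genes of amino acid synthesis and transport and the factor CHOP, encoded by Ddit3. The arrays measured RNA levels and neither Xbp1 splicing nor phosphorylation.

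The arrays were alike in their median over all probe sets, between 3.27 and 3.31 (log2), which lies close to the filter at 2.82. With quantile normalization the shares of all genes above and below the pools changed, as given below. The 5 measured hepatocyte markers had a log2 summed level between 17.94 and 18.03. Markers of stellate cells and fibroblasts (6 measured genes of 7) lay at 13.45 in the vehicle pool, 13.79 and 13.32 in TA at 6 h, and at 13.11, 12.50 and 12.88 at 24 h. The ranges over the arrays were 12.33 to 12.99 for macrophages (7 of 8), 12.13 to 12.77 for sinusoidal endothelium (5 of 6) and 9.16 to 10.57 for cholangiocytes (2 of 4, Krt7 below the filter). They were 4.85 to 5.82 for neutrophils (2 of 4) and 4.81 to 5.05 for lymphocytes and plasma cells (2 of 6, with Cd3d, Cd79b and Mzb1 below the filter). In these bulk samples fewer cells of a type and less RNA per cell cannot be told apart. GAPDH read from its 3′ end exceeded that read from its 5′ end by 2.26 (log2) in TA animal 1 at 6 h and by 1.82 to 2.04 on the other arrays. For beta-actin the excess was 4.31 in that animal, within the 4.17 to 4.36 of the other arrays. Fluidics runs were inferred from gaps between the clock times in the hybridization date field of the array settings, without use of the date. By these gaps, TA animal 1 of 6 h fell in 1 inferred run with the vehicle pool of 6 h, and the remaining 4 arrays in another. Arrays of different days at like hours would also fall in 1 inferred run. The part of these values in the results was not tested, beyond the values for animal 1 alone given below.

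Promoter windows of 27 of the 32 genes, from 250 bases before to 50 after the start site (RefSeq, build GRCr8), were searched on both strands for 4 response elements of these pathways. Atf6, Ern1, Manf, Pdia3 and Pdia6 were not matched. The ER stress response element ERSE, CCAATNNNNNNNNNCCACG, the site of ATF6 with NF-Y, lay in the windows of 5 genes, Calr, Canx, Creld2, Derl3 and Xbp1, against 0.0657% of all 33469 windows. ERSE-II, ATTGGNCCACG, lay in that of Herpud1 alone among them (0.0508% of windows). The ATF4 element CARE, TGATGNAA, lay in those of Chac1, Herpud1, Nupr1 and Trib3 (3.98% of windows), and UPRE, TGACGTGG, the XBP1 site, in none of them (0.595% of windows). In Herpud1 the sites of the 2 kinds do not overlap. A match is a description of letters and not a measured binding site. The windows of 4 genes whose values stand out below or that hold both kinds of element are shown, with the elements in capitals, 5′ to 3′ on the strand of the gene: Creld2, with ERSE at -145 from the start site (chr7:121789134-121789433, plus strand), Xbp1, with ERSE at -65 (chr14:84604373-84604672, plus strand), Herpud1, with CARE at -184 and ERSE-II at -124 (chr19:10614658-10614957, minus strand), and Trib3, with CARE at -21 (chr3:161275484-161275783, minus strand).
Creld2: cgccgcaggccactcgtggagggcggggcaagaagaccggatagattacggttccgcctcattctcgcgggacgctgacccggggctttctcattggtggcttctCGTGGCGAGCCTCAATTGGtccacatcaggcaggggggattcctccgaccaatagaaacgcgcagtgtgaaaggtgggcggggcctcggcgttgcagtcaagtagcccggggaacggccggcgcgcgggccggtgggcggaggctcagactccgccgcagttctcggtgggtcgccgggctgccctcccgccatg
Xbp1: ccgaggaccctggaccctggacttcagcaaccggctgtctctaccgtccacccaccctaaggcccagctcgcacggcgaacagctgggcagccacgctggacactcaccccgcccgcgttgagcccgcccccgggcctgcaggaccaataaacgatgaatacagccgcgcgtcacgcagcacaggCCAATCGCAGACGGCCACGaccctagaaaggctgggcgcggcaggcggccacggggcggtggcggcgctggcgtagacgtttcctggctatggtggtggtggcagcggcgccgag
Herpud1: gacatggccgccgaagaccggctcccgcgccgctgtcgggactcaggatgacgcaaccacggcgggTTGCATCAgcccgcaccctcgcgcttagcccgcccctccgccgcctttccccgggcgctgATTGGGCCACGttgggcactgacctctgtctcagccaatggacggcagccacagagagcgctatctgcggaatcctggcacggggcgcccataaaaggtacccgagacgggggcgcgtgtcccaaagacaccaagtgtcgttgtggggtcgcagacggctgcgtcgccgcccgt
Trib3: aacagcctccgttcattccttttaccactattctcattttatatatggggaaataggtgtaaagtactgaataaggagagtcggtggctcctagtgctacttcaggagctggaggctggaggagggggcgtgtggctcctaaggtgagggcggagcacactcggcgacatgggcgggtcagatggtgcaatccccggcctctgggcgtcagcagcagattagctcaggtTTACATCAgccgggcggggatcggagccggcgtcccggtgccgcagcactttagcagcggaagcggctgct

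At 6 h, both treated animals lay above the vehicle pool for 3 of 5 genes of amino acid supply, and below it for 5 of 8 folding genes and 3 of 4 degradation genes. Asns, asparagine synthetase, was 2.02-fold higher in TA, or 1.01 ± 0.30 on the log2 scale (SE, 2 treated animals against 1 pool). Syvn1, the ubiquitin ligase of ER-associated degradation, and Creld2, an ER resident protein, differed by -0.65 ± 0.18 and -0.54 ± 0.17. Over the 27 genes, in 5 both treated animals lay above the vehicle pool and in 12 both lay below it, against 22.9% and 38.4% of the 10449 genes. With quantile normalization the counts were 7 and 11 of 27, while the shares of all genes became 34.5% above and 29% below. The median log2 difference of the 27 was -0.077, and that of all genes -0.028. In animal 1 alone, which fell in the same inferred run as the pool, 17 of 27 lay below the pool, against 60.3% of genes, with a median of -0.071. In animal 2 alone 17 of 27 did, against 55.2%, with a median of -0.13. None of the 27 passed limma's test with Benjamini-Hochberg adjustment over all 18625 probe sets, where the percentage called was 0. The smallest adjusted p among them was 0.83, and 3 genes had an unadjusted p under 0.05, Asns upward and Creld2 and Syvn1 downward, against 1.58% of probe sets upward and 4.25% downward. No member differed by 2-fold in both animals, as 0.249% of genes did upward and 0.23% downward.

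**Figure D1:**
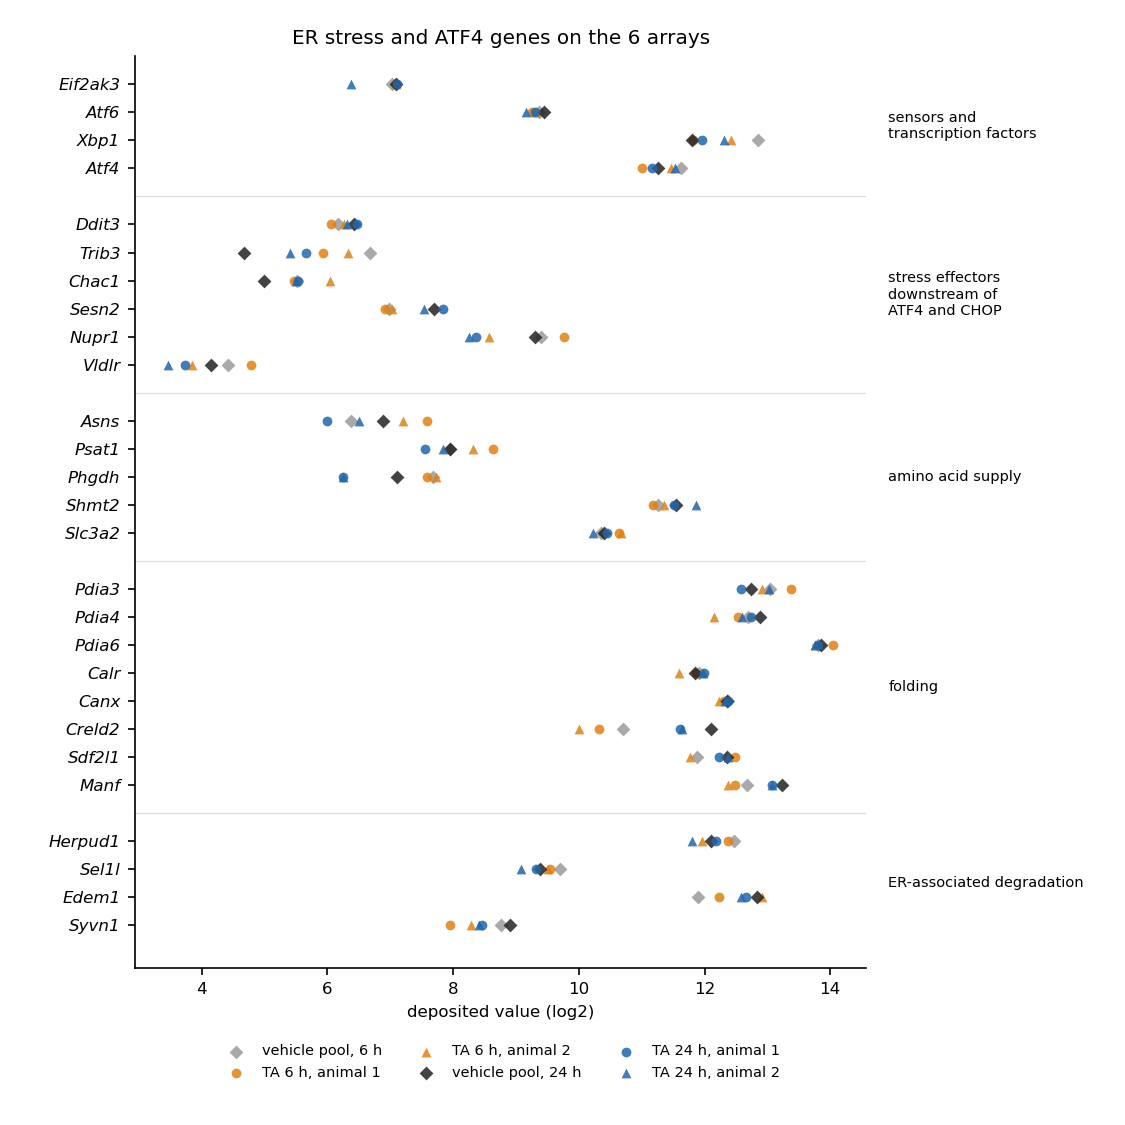
The deposited log2 value of the 27 measured genes on each of the 6 arrays, grouped by role and not comparable in level between genes; grey and black diamonds are the vehicle pools of 6 h and 24 h, orange and blue symbols the treated animals of 6 h and 24 h. Creld2 and Manf separate by time, Syvn1 has both pools above all treated animals, and Trib3 spans 4.68 to 6.68.

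Among the sensors and factors, Xbp1 measured 12.86 in the vehicle pool of 6 h, with 11.82 and 12.42 in the treated animals, a log2 difference of -0.74 ± 0.33. The pool of 6 h held the highest Xbp1 value of the 6 arrays. The pool of 24 h held the lowest, 11.81, and against it the direction of the 6 h animals turned. Atf4 was at 11.62 in the pool and at 11.01 and 11.47 in the animals (-0.38 ± 0.28), and at 11.25 in the pool of 24 h, between the animals. Atf6 had -0.08 ± 0.12 and Eif2ak3 0.06 ± 0.35, both within their standard errors of 0. Of the 4 measured genes of this kind 3 lay below the pool in both animals, against 38.4% of all genes, and 2 did with quantile normalization, against 29%. Eif2ak3 lay above the pool by 0.05 and 0.06.

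The effectors downstream of ATF4 and CHOP had no common direction at 6 h, with 0 of 6 above the pool in both animals and 1 below, against 22.9% and 38.4% of all genes. That gene was Trib3, a pseudokinase induced by ATF4 and CHOP, at 6.68 in the pool and 5.93 and 6.33 in the animals (-0.55 ± 0.23). Its other probe sets differed by -1.02 and -0.46. Ddit3 was at 6.17 in the pool and at 6.06 and 6.27 in the animals, on either side of it. Chac1, which degrades glutathione, was at 5.52 in the pool, 5.47 in animal 1 and 6.04 in animal 2. Nupr1, a stress-induced chromatin protein, was at 9.39 in the pool, 9.77 in animal 1 and 8.57 in animal 2, and Vldlr, a lipoprotein receptor, at 4.41, 4.78 and 3.85. For Chac1, Nupr1 and Vldlr the animals thus differed from each other by more than either mean differed from the pool. Sesn2, a sestrin that restrains mTORC1 signalling, was at 6.98 in the pool and 6.92 and 7.03 in the animals.

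For amino acid supply, Asns measured 6.38 in the vehicle pool, with 7.59 and 7.21 in the treated animals. Both animals also exceeded the vehicle pool of 24 h, at 6.89. Psat1, the aminotransferase of serine synthesis, was at 7.96 in the pool and at 8.64 and 8.31 in the animals (0.52 ± 0.22), with 7.95 in the pool of 24 h. Slc3a2, the heavy chain shared by several amino acid transporters, was at 10.35 in the pool and at 10.64 and 10.67 in the animals (0.31 ± 0.13), with 10.40 in the pool of 24 h. These 3 genes were the members above both vehicle pools in both animals, 3 of 27 against 13% of genes. Phgdh, the first enzyme of serine synthesis, and Shmt2, the mitochondrial serine hydroxymethyltransferase, had -0.02 ± 0.11 and 0.01 ± 0.20. None of the adjusted p of these genes lay under 0.83.

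Of the 8 folding genes, 5 lay below the pool in both animals at 6 h and 0 above it, against 38.4% and 22.9% of all genes (5 and 1 with quantile normalization, against 29% and 34.5%). Creld2 was at 10.70 in the pool and at 10.32 and 10.01 in the animals. Manf, a secreted neurotrophic ER protein, was at 12.68 in the pool and at 12.48 and 12.38 (-0.25 ± 0.10). Pdia4, a disulfide isomerase, was at 12.69, 12.54 and 12.15 in the same order (-0.35 ± 0.21). The lectin chaperones Calr, calreticulin, and Canx, calnexin, differed by -0.18 ± 0.15 and -0.11 ± 0.10, and the other probe sets of Canx by -0.40 and -0.11. The isomerases Pdia3 and Pdia6 had 0.10 ± 0.31 and 0.09 ± 0.16, and Sdf2l1, an ER chaperone cofactor, 0.25 ± 0.35, each with the animals on either side of the pool. Without animal 1 these 3 differences turned negative.

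In ER-associated degradation Syvn1 was at 8.77 in the pool and at 7.95 and 8.29 in the animals, and both were also below the pool of 24 h, at 8.91. Edem1, a lectin that routes misfolded glycoproteins to degradation, lay on the other side, at 11.90 in the pool and at 12.23 and 12.91 in the animals (0.67 ± 0.33). Its other 2 probe sets had 1.04 and 0.58. In the probe set with 0.58, animal 1 was level with the pool (8.17 beside 8.16) and animal 2 was at 9.33. For the brightest probe set the pool of 24 h was at 12.84, so that against that pool the direction of Edem1 turned. For the probe set with 1.04 the direction did not turn, with 10.68 and 10.66 in the animals and 10.52 in the pool of 24 h. Herpud1, an ER membrane protein of the same complex, had -0.30 ± 0.28 and Sel1l, the partner of Syvn1, -0.18 ± 0.14. Below both vehicle pools in both animals were 6 of the 27 genes, Atf6, Pdia4, Canx, Creld2, Manf and Syvn1, against 20.4% of genes.

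**Figure D2:**
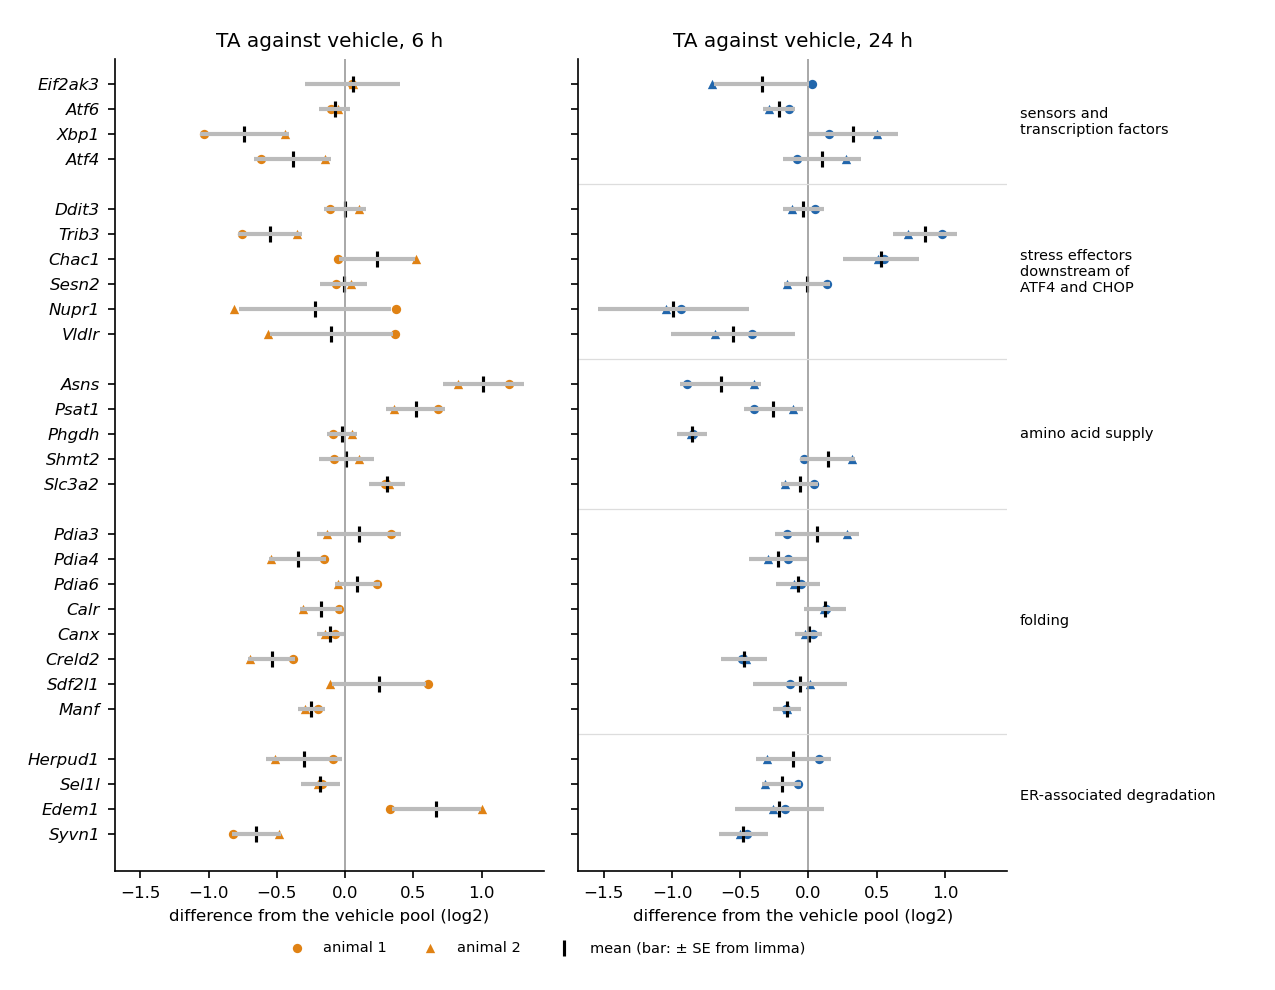
Log2 difference of each treated animal from the vehicle pool of its time (circles, animal 1, triangles, animal 2), with the mean as a black tick and ± SE from limma as a grey bar, for 6 h on the left and 24 h on the right. Asns lies to the right of 0 at 6 h and to the left at 24 h, Trib3 the reverse, and Syvn1 and Creld2 lie to the left at both times.

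At 24 h the serine synthesis gene Phgdh was 0.554 times its vehicle level (log2 difference -0.85 ± 0.11), with both treated animals alike, and Trib3 was 1.81-fold higher (0.85 ± 0.23). Of the 27 genes, 4 were above the vehicle pool in both animals and 13 below it in both, against 28.1% and 34.5% of all genes (with quantile normalization 4 and 15 of 27, against 33.8% and 26.6%), with a median of -0.11 beside -0.0084 for all genes. Limma called none of the 27, and 1 of 18625 probe sets in all (0.00537%). The smallest adjusted p of a member was 0.90, and Phgdh downward and Trib3 upward had an unadjusted p under 0.05, as 3.3% and 1.99% of probe sets did. No member differed by 2-fold in both animals, against 0.258% of genes upward and 0.211% downward. In the test of the difference between the effects at 24 h and 6 h, 0 members were called and 3 (Trib3, Asns and Phgdh) had an unadjusted p under 0.05, where 0.00537% of probe sets were called and 4.8% had such a p, 2.89% with the higher effect at 24 h, as for Trib3, and 1.91% with the lower, as for Asns and Phgdh.

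Phgdh measured 7.10 in the vehicle pool of 24 h, with 6.26 and 6.24 in the animals. These were the lowest values of the 6 arrays, with the pool of 6 h at 7.67 and the treated animals of 6 h at 7.58 and 7.72. Asns was at 6.89 in the pool and at 6.00 and 6.50 in the animals (-0.64 ± 0.30), and Psat1 at 7.95, 7.55 and 7.84 (-0.26 ± 0.22). The pool of 6 h, at 6.38 for Asns, lay between the animals. Amino acid supply had 3 of 5 genes below the pool in both animals at 24 h and 0 above, against 34.5% and 28.1% of all genes. At 6 h it had 0 below and 3 above, against 38.4% and 22.9%. Shmt2 and Slc3a2 had 0.14 ± 0.20 and -0.06 ± 0.13.

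Trib3 measured 4.68 in the vehicle pool of 24 h, with 5.65 and 5.41 in the animals, and its other probe sets had 0.94 and 0.62. The vehicle pool of 6 h was at 6.68, above all 4 treated animals, so that against that pool the direction turned. Chac1 was at 4.99 in the pool and at 5.54 and 5.50 in the animals (0.53 ± 0.28), and the pool of 6 h, at 5.52, lay between them. Nupr1 was at 9.30 in the pool and at 8.36 and 8.25 in the animals (-0.99 ± 0.55), both below the pool of 6 h as well, at 9.39. Its standard error includes the wide spread of the animals of 6 h. Vldlr was at 4.15, 3.74 and 3.47 (-0.55 ± 0.45), and its other 2 probe sets past the filter, which lie near 3 on the log2 scale, had 0.10 and -0.16. For both genes TA animal 1 of 6 h was the highest array and the animals of 24 h the lowest, an order that the summed stellate cell and fibroblast markers shared (13.79 against 12.50 and 12.88), and the part of these markers was not tested. Ddit3 and Sesn2 were on either side of the pool, with -0.04 ± 0.15 and -0.01 ± 0.17.

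Syvn1 measured 8.91 in the vehicle pool of 24 h, with 8.46 and 8.41 in the animals (-0.48 ± 0.18). Creld2 was at 12.10 in the pool and at 11.62 and 11.64 (-0.47 ± 0.17), and Manf at 13.23, 13.07 and 13.08 (-0.16 ± 0.10). Together with Atf6, Pdia4 and Sel1l these were the 6 members below the pool of their time in both animals at both times, against 14% of genes, and 0 members were above it throughout, against 8.1%. All 4 treated animals lay below both vehicle pools for Syvn1 and Atf6, 2 of 27 against 5.44% of genes, and above both for 0 of 27, against 2.95%. The direction of Creld2 and Manf at 24 h turned against the pool of 6 h, at 10.70 and 12.68. Xbp1, at 11.81 in the pool and 11.96 and 12.31 in the animals, had 0.33 ± 0.33, and Atf4 0.10 ± 0.28. Atf6 had -0.21 ± 0.12 and Eif2ak3 was at 7.09 in the pool, 7.11 in animal 1 and 6.38 in animal 2. The remaining ER genes differed by 0.22 or less from the pool. At 24 h 8 of the 27 genes, Atf6, Nupr1, Vldlr, Psat1, Phgdh, Pdia6, Sel1l and Syvn1, lay below both vehicle pools in both animals, against 24.6% of genes, and Calr alone lay above both, against 14.6%. Between the times 3 genes (Asns, Psat1 and Edem1) lay above the pool at 6 h and below it at 24 h, against 6.74% of genes, and 3 (Xbp1, Trib3 and Calr) below it at 6 h and above it at 24 h, against 10.3%.

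Creld2 and Manf differed more between the times than between TA and vehicle. Creld2 was 2.76-fold higher in TA at 24 h than in TA at 6 h (log2 difference 1.47 ± 0.14, n = 2 animals a time), and the vehicle pool of 24 h was 2.64-fold above that of 6 h. Manf was 1.56-fold higher in TA (0.65 ± 0.08) and 1.47-fold in the pools, and Sesn2 1.64-fold in both. Phgdh was 0.378 times its level of 6 h in TA (-1.40 ± 0.09) and 0.673 times in the pools. The 2 times differ in the number of doses as well, and can differ in the hour of the day. Time, dose and hour of the day cannot be told apart here. Limma called 0 of 27 members between the treated groups, as it called 0 of 18625 probe sets, with a smallest adjusted p of 0.14 for Phgdh and 0.16 for Creld2, and 8 members had an unadjusted p under 0.05, 3 higher and 5 lower at 24 h, against 14.8% of probe sets, 7.89% higher and 6.93% lower.

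Of the 27 genes, 17 had TA values at the 2 times that did not overlap, against 47.3% of genes, 9 higher at 24 h and 8 lower, against 24% and 23.2%. All 3 arrays of 24 h lay above all 3 of 6 h for Ddit3, Sesn2, Shmt2, Creld2 and Manf, 5 of 27 against 13.3% of genes. They lay below for Trib3, Psat1, Phgdh and Sel1l, 4 of 27 against 15.1%, and the 9 together stand against 28.4%. Of the folding genes, 5 of 8 were higher in TA at 24 h without overlap and 0 lower. Canx, 1 of the 5, differed by 0.08, and its other probe sets by -0.32 and -0.05. Of the amino acid supply genes, 1 of 5 was higher and 4 were lower. Asns differed by -1.15 ± 0.24 in TA while the pool of 24 h was above that of 6 h by 0.51. Trib3 differed by -0.60 ± 0.19 in TA, with -0.18 and 0.03 in its other probe sets, and its pools differed by -2.01. Xbp1 had 0.01 ± 0.27 in TA with pools differing by -1.05.

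**Figure D3:**
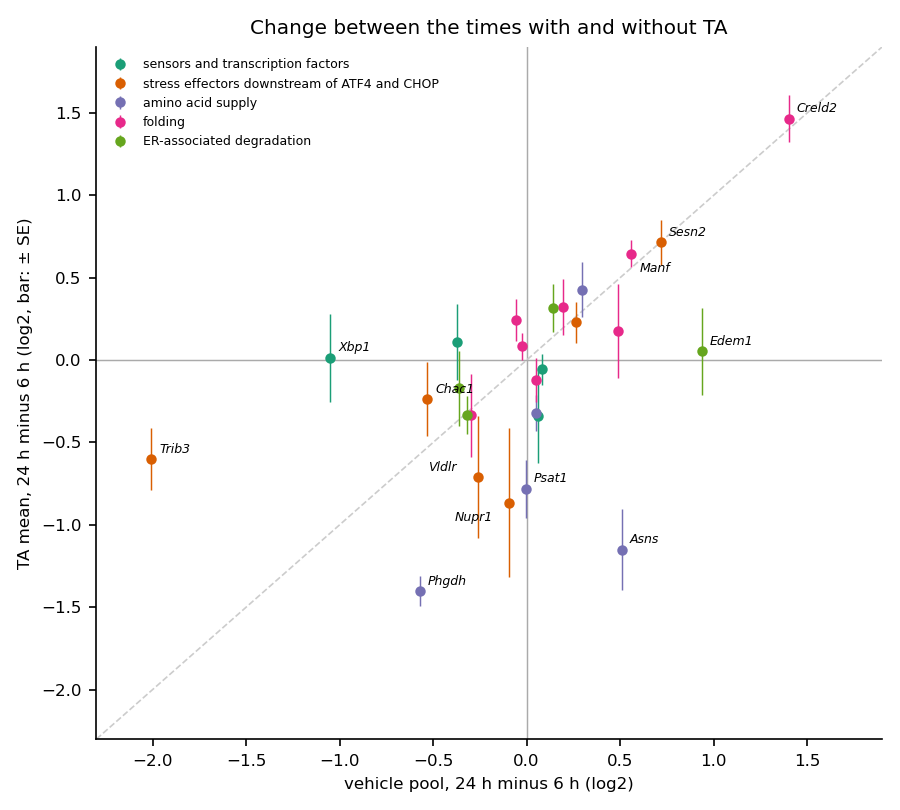
Change from 6 h to 24 h in the vehicle pools (horizontal, log2, 1 pool a time) and in the TA means (vertical, log2, with ± SE from limma, 2 animals a time) for the 27 genes, coloured by role; the dashed line marks equal change. Creld2, Manf and Sesn2 lie near the line, Trib3 and Xbp1 far above it and Asns far below.

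Beyond the members, 80 other genes of the pathway were measured in 5 lists, chosen with earlier results of these data known. At each time 0 of the 80 passed limma's test. At 6 h 9 and at 24 h 8 had an unadjusted p under 0.05, against 5.84% and 5.28% of probe sets. Of 19 chaperones and folding enzymes, 14 were below the vehicle pool in both animals at 6 h and 2 above, with a median of -0.20, against 38.4% and 22.9% of genes. Of 18 genes of degradation and translocation, 14 were below and 1 above, with a median of -0.18. With quantile normalization these counts were 13 and 3 and 11 and 2, while the shares over all genes turned to 29% below and 34.5% above. In animal 1 alone, which fell in the same inferred run as the pool, 14 of 19 and 14 of 18 were below the pool, against 60.3% of genes. Both animals of 6 h lay below both pools for 12 and 13 genes of these lists, against 20.4% of genes.

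Hyou1, an ER chaperone of the heat shock family, had the largest value of the first list at 6 h, at 9.04 in the pool and 8.67 and 8.20 in the animals (-0.61 ± 0.24). Dnajb9 and Hspa13, a J protein and an ATPase of the ER, had -0.54 ± 0.39 and -0.48 ± 0.15. Hspa5, the ER chaperone BiP, was at 14.11 in the pool and at 13.96 and 13.84 (-0.21), and at 14.58, 14.53 and 14.31 at 24 h. On the other side were Uggt1, the folding sensor of glycoproteins, at 0.23 ± 0.27, and Txndc5, a thioredoxin family member, at 0.12 ± 0.09. In the second list Sec23b, a coat protein of vesicles leaving the ER, had -0.54 ± 0.18, Selenos, a selenoprotein of ER-associated degradation, -0.42 ± 0.13, and Ssr3, a subunit of the translocon-associated complex, -0.39 ± 0.11. Os9, a lectin of the same pathway, had 0.03 ± 0.09.

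At 24 h these lists had 11 of 19 and 8 of 18 genes below the pool in both animals and 2 above in each, against 34.5% and 28.1% of all genes, with medians of -0.11 and -0.06. The share of the second list below the pool, 44.4%, was nearer to that of all genes than the 57.9% of the first. Txndc5 had -0.48 ± 0.09, Hspa13 -0.46 ± 0.15 and Fkbp11, a prolyl isomerase, -0.41 ± 0.19. Sec24d, also of the vesicle coat, had -0.51 ± 0.11, Sec23b -0.38 ± 0.18 and Ube2j1, a ubiquitin-conjugating enzyme, -0.29 ± 0.30. Higher were Erp29, an ER protein of the disulfide isomerase family, at 0.41 ± 0.38, Mesd, a chaperone of lipoprotein receptors, at 0.19 ± 0.20, Ube2g2, another ubiquitin-conjugating enzyme, at 0.35 ± 0.23 and Os9 at 0.10 ± 0.09. Hspa13 and Sec23b were among the genes on the low side at 6 h as well.

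Aminoacyl-tRNA synthetases, which charge tRNAs and many of which are ATF4 targets, had 12 of 13 genes below the pool in both animals at 24 h and 0 above, against 34.5% and 28.1% of genes, with a median of -0.29. Eprs1, the glutamyl-prolyl synthetase, was at 12.36 in the pool and at 11.68 and 11.77 in the animals (-0.64 ± 0.10), Yars1 at 9.73, 9.15 and 9.21 (-0.55 ± 0.12) and Iars1 at 9.21, 8.75 and 8.73 (-0.47 ± 0.15). The smallest adjusted p in this list was 0.90 (limma). The count was again 12 of 13 with quantile normalization, and 6 of 13 were below both vehicle pools, against 24.6% of genes. At 6 h the list had 6 below and 3 above the pool, against 38.4% and 22.9% of genes. On the low side were Vars1 at -0.38 ± 0.26, Tars1 at -0.35 ± 0.19 and Cars1 at -0.28 ± 0.13. On the high side were Wars1, Sars1 and Aars1 at 0.09, 0.07 and 0.05. With quantile normalization the counts became 4 below and 6 above, against 29% and 34.5%.

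The other ATF4 targets were divided. At 6 h 8 of 21 were above the pool in both animals and 8 below, against 22.9% and 38.4% of all genes, and at 24 h 7 and 8, against 28.1% and 34.5%. The 38.1% below the pool at each time was close to the share of all genes. Higher at 6 h were Ndrg1, a stress-responsive gene, at 0.77 ± 0.20, and the amino acid transporters Slc1a4 at 0.72 ± 0.33 and Slc7a1 at 0.62 ± 0.15. Slc7a1 was low, at 2.95 in the pool and 3.50 and 3.63 in the animals, close to the filter at 2.82. Lower were Cebpb, a transcription factor of liver, at -0.90 ± 0.33, Slc38a2, a neutral amino acid transporter, at -0.68 ± 0.12, and Vegfa at -0.66 ± 0.69. For Cebpb and Vegfa the pool of 24 h lay between the animals of 6 h, so that against that pool they had no common direction. For Slc38a2 both animals lay below that pool as well. At 24 h Slc6a9, a glycine transporter, was at 6.50 in the pool and at 5.68 and 5.31 in the animals (-1.01 ± 0.29), Psph, the last enzyme of serine synthesis, had -0.42 ± 0.16 and Eif4ebp1, a repressor of translation, -0.41 ± 0.15. The stress factors Atf3 and Atf5 had 0.47 ± 0.40 and 0.38 ± 0.13 and the aminotransferase Gpt2 0.33 ± 0.21. Fgf21, a hormone of liver under ATF4, had -0.13 and -0.21 at the 2 times. Gdf15 lay between 3.73 and 3.76 on all arrays, so that a low level and a lack of signal cannot be told apart for it. It was counted below the pool at 24 h on differences of -0.0036 and -0.0056.

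Among 9 eIF2 kinases and upstream parts, 2 were above the pool in both animals at 6 h and 3 below, and 1 above and 3 below at 24 h. At 6 h these shares, 22.2% above and 33.3% below, were close to the 22.9% and 38.4% of all genes. At 24 h 33.3% below stood beside 34.5%, and 11.1% above beside 28.1%. With quantile normalization the counts were 5 and 2 at 6 h, against 34.5% and 29%. They were 2 and 1 at 24 h, against 33.8% and 26.6%. Ppp1r15b, the constitutive counterpart of Ppp1r15a, had -0.50 ± 0.38 at 6 h, Eif2ak2, the kinase PKR, -0.26 ± 0.34 and Mbtps2, a protease that cleaves ATF6, -0.15 ± 0.26. Creb3l3, a liver factor related to ATF6, had 0.15 ± 0.14 at 6 h and 0.10 ± 0.14 at 24 h, and Eif2ak1, the kinase HRI, 0.05 ± 0.10 at 6 h. Eif2ak4, the kinase GCN2 that senses amino acid shortage, had -0.26 ± 0.27 at 24 h, Eif2s1, encoding eIF2 alpha, -0.10 ± 0.13 and Traf2, an adaptor that binds IRE1, -0.01 ± 0.09. Traf2 lay between 5.21 and 5.23 on all arrays and was counted below the pool at 24 h on differences of -0.03 and -0.0008.

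**Figure D4:**
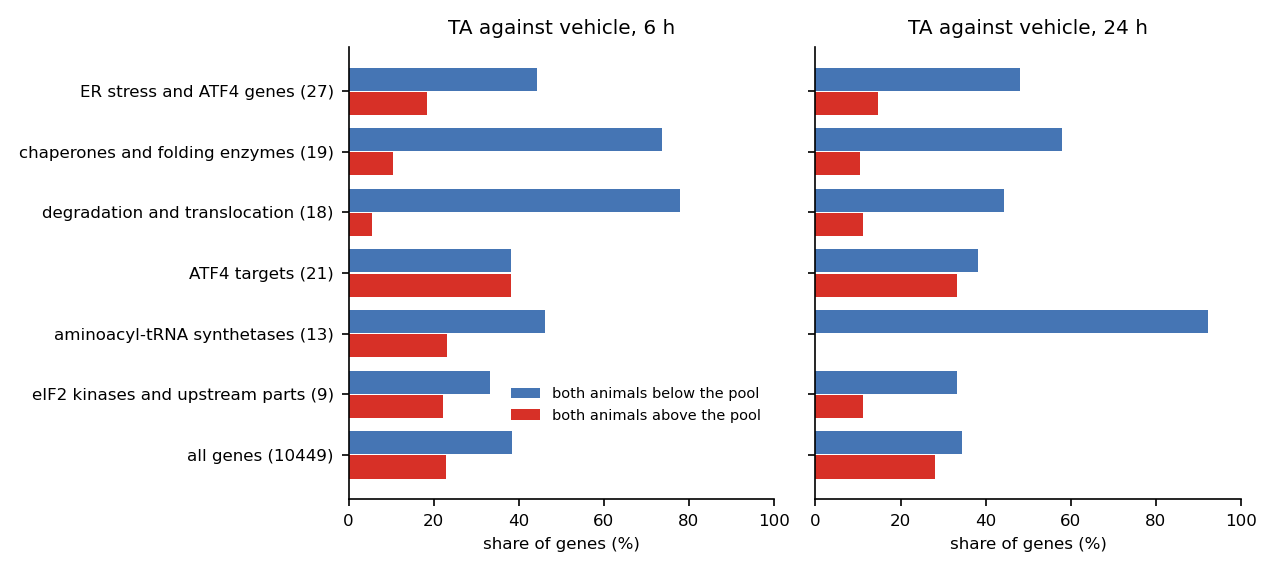
Share of genes (%) whose 2 treated animals both lay below (blue) or above (red) the vehicle pool of their time, at 6 h on the left and 24 h on the right, for the 27 measured ER stress and ATF4 genes, the 5 lists of other pathway genes and all 10449 genes; the number of genes is in brackets. The blue bars of the chaperone and translocation lists at 6 h (73.7% and 77.8%) and of the tRNA synthetases at 24 h (92.3%) are the longest, beside 38.4% and 34.5% of all genes.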

How the data were processed

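Liver RNA was measured on 6 Affymetrix Rat230_2 arrays. The table the authors deposited holds log2 values of 31099 probe sets. The submitters' processing notes name R 2.0.1, affy 1.5.8, RMA and GCRMA, with no record in the sources used here of which of the last 2 made the table. Low values are compressed near a floor. The number of arrays limits the precision. The array settings (other values) are deposited per array and gave the clock times from which the fluidics runs were inferred.

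After removing 57 control probe sets, 18625 of 31042 passed the filter. The platform annotation pairs 20826 probe sets with 1 symbol, 436 with several (not named) and 9780 with none. A mean per group was estimated by limma 3.58.1 (R 4.3.3), with 2 residual and 1.60 prior degrees of freedom, Benjamini-Hochberg adjustment over all probe sets kept, called under 0.05, two-sided. The procedure was tested on simulated data drawn with limma's own fitted prior variance. Such data check the code and not how well the model holds for these arrays. All 32 members are named, and in the 5 pathway lists (chaperones and folding enzymes, degradation and translocation, ATF4 targets, aminoacyl-tRNA synthetases, eIF2 kinases and upstream parts) up to 3 genes each way per time, by size among those on 1 side of the pool in both animals. Hspa5, Fgf21 and Gdf15 were chosen after their values were seen. Members and lists were chosen with earlier results of these data known. Counts of genes on 1 side of the pool are descriptions. Alternatives were other filters, scalings, probe set averaging, moderated variances, control pools, an additive model, the replicate number or inferred fluidics run as a block, and each treated animal left out.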

Additional observations from a re-analysis of the deposited data

Results flagged for a closer look

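For 6 of the 27 genes both treated animals lay on one side of the vehicle pool at 6 h and both on the other side at 24 h, as did 17% of all genes. For each of them limma's test of the difference of effects was not passed (adjusted p = 1.0). The effect at 24 h minus that at 6 h was 1.41 ± 0.33 (log2, SE) for Trib3, 1.07 ± 0.46 for Xbp1 and 0.30 ± 0.22 for Calr, which were lower than vehicle at 6 h and higher at 24 h. It was -1.66 ± 0.42 for Asns, -0.88 ± 0.46 for Edem1 and -0.78 ± 0.31 for Psat1, which were higher at 6 h and lower at 24 h. The vehicle pools themselves differed by -2.01 for Trib3, -1.05 for Xbp1, 0.94 for Edem1 and 0.51 for Asns, and by -0.06 for Calr and -0.0046 for Psat1. For Trib3, Xbp1 and Edem1 the direction at each time turned against the pool of the other time. The other 2 probe sets of Edem1 had 0.09 and -0.13 at 24 h. In the first of these the animals of 6 h, at 10.68 and 10.66, stayed above the pool of 24 h, at 10.52. The part of the vehicle pools in the differences was not tested.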

How the results depend on the processing

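In every setting run, limma called 0 members in each of the 4 comparisons, with 2 to 11 of them at an unadjusted p under 0.05. The median over the members at 6 h was -0.077 and moved to -0.025 with no filter (30 genes), 0.0015 with quantile normalization, -0.022 with the mean of the probe sets of a gene and -0.013 against the vehicle pool of the other time. Leaving out animals it ranged from -0.13 to -0.071 at 6 h and from -0.16 to -0.081 at 24 h. At 24 h the additive model gave -0.053, an average of both times by construction. The replicate block gave 0 calls and medians of -0.054 and -0.088. Same-numbered animals had deviations correlating at -0.079 over probe sets, so that the numbers are only names. With the vehicle pool of the other time 10 of 27 genes changed sign at 6 h and 12 at 24 h, and the cause was not tested. At 6 h 10 genes (Atf4, Asns, Psat1, Slc3a2, Pdia4, Calr, Canx, Creld2, Manf and Syvn1) kept their sign in every setting run, and at 24 h 7 (Atf6, Nupr1, Vldlr, Phgdh, Pdia4, Sel1l and Syvn1). Other filters and leaving out animals of the other time cannot change these signs, by construction. The share of all genes that kept their sign was not computed. The inferred fluidics run as a block gives the same values at 6 h as leaving out TA animal 2, by construction.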
